A study of Mus musculus with 18 samples.

Results

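Mt1 and Mt2 encode the metallothioneins that most tissues express, small cysteine-rich proteins that bind zinc and copper. They were followed here through every assay of a mouse bladder atlas, and both genes were found by symbol in all tables. They are 2 of the 29214 genes listed in the bulk table. Free zinc is sensed by the transcription factor Mtf1, which binds short metal response elements in metallothionein promoters and raises transcription. Glucocorticoids and the interleukin-6 to Stat3 pathway also raise metallothionein transcription, and the proteins buffer zinc and take up reactive oxygen species. Mt3, best known from brain, and Mt4, of stratified squamous epithelia, complete the mouse family.

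The bladder wall consists of a urothelium that carries uroplakin plaques, a fibroblast-rich stroma and the smooth muscle of the detrusor. All mice were C57BL/6. Whole-bladder cell suspensions gave 5 droplet libraries: 3 males of 22 months, 3 males of 3 months, pools of 2 females and 2 males of 12 months (2 libraries), and such a pool of 24 months. Nuclei came from a pool of 2 females and 2 males of 12 months. Cells of the detrusor alone came from 3 females of 14 months, and detrusor-enriched cells from 2 females and 2 males of 14 months. Spatial sections, 2 of 22 months and 2 of 14 months, were labelled with 4 males each. Bulk RNA came from 12-month animals labelled as 3 females, with 3 libraries of intact tissue and 3 of dissociated bladder. Each droplet library is thus 1 pool of animals. Nothing in the labels says that the bulk or section libraries came from separate animals, so p-values measure the spread between these libraries, which may be technical.

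Bulk libraries held 23083752 to 68760791 reads. Median counts of unique molecular identifiers (UMIs) ran from 1837 to 15042 per cell barcode, were 1126.5 per nucleus, and ran from 14003 to 16622 per spot. The male whole-bladder tables, of 3 and 22 months, were counted on another gene list than the mixed-sex ones and were shallower. Their barcodes had 14 bases, against 16 in the other tables. Sex, depth, gene list and barcode length thus move together in them. The detrusor, nuclei and section tables were on a further list, of 31053 genes, against 27998 in the mixed-sex and 27775 in the male whole-bladder tables. Cells are called "like" a class because their clusters were named from marker genes, after removing Mt1, Mt2 and the gene lists of this report from the clustering. Levels in cells, nuclei and sections are UMIs per 1000000 UMIs outside mitochondrial genes, and levels in bulk are reads per 1000000 reads. Both are written CPM, but they are different measures and are not compared with each other here.

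On mouse chromosome 8 of GRCm38.p6, the RefSeq assembly that corresponds to mm10, Mt2 spans chr8:94172618-94173567 and Mt1 spans chr8:94178883-94180327. The start sites of the promoter table lie 6471 bases apart on the forward strand, at 94172618 for Mt2 and 94179089 for Mt1, the latter inside the span of the gene. Promoter windows of both genes, from 250 bases before to 50 bases after the start site of that table, are shown because Mt1 and Mt2 rose together in the bulk comparison and these windows hold the element that Mtf1 binds. The last window is that of Slc30a1, the zinc exporter of the plasma membrane and another textbook Mtf1 target, whose bulk difference did not pass the test. Capitals mark every match to the core of the metal response element, searched as TGCACNC and TGCGCNC on both strands.
Mt1, chr8:94178839-94179138, forward strand: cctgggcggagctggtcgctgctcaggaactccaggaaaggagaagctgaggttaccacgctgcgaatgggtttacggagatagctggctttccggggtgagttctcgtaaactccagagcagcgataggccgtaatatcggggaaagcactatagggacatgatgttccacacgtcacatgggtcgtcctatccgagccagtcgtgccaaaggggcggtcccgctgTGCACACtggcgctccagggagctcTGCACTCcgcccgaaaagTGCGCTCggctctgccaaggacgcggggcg
Mt2, chr8:94172368-94172667, forward strand: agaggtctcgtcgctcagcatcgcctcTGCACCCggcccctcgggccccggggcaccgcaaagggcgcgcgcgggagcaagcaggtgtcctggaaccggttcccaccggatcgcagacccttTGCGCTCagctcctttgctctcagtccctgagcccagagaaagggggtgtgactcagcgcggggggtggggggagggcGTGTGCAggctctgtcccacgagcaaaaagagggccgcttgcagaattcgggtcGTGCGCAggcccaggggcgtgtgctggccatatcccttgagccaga
Slc30a1, chr1:191906531-191906830, forward strand: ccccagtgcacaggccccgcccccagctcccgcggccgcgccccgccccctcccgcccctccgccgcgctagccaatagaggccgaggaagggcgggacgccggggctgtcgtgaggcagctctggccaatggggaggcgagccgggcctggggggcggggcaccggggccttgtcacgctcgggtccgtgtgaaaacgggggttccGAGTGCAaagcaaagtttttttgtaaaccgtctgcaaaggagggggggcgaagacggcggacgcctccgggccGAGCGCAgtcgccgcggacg

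The Mt1 window held 3 matches, all on the forward strand and close together, whose first bases lie at -23, 2 and 20 from the start site of the promoter table. The Mt2 window held 4 matches, spread over positions -223 and -128 on the forward strand and -50 and 4 on the reverse strand. Slc30a1 had 2 matches, and Mt3 and Mt4 had 1 each. Of 32851 RefSeq promoter windows of the same length, 25.7% held at least 1 match, 1.97% at least 3 and 0.517% at least 4. Among the metal and stress genes followed here, Gclm, Slc30a4 and Slc30a10 also held 3. A match is a run of letters in a window and not a measured binding site. Positions and counts hold for these windows alone, and the gene span of Mt1 begins at 94178883, before the start site used.

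In bulk, both metallothioneins were higher in dissociated bladder than in intact tissue. Mt1, the gene with more reads, stood at 46.9, 55.0 and 55.5 CPM in the 3 intact libraries and at 225, 207 and 233 CPM in the 3 dissociated ones. Mt2 stood at 18.3, 25.4 and 24.5 CPM in intact tissue and at 121, 111 and 112 CPM after dissociation. For neither gene did the groups overlap, and the lowest dissociated library was far above the highest intact one. Mean Mt1 was 52.5 ± 4.82 CPM (SD, n = 3) in intact tissue and 221 ± 13.3 CPM (SD, n = 3) in dissociated bladder, higher by 2.19 on the log2 scale (SE 0.10, adjusted p = 3.4e-06 by edgeR's quasi-likelihood test), or 4.55-fold. Mean Mt2 was 22.7 ± 3.87 CPM (SD, n = 3) and 115 ± 5.49 CPM (SD, n = 3), or 2.44 on the log2 scale (SE 0.13, adjusted p = 5.6e-06), or 5.43-fold. These calls stand against a wide background: 59.2% of 16538 genes tested were called, 27.9% as higher and 31.3% as lower, and for 67.9% the groups did not overlap. By size of rise, Mt2 ranked 390 and Mt1 ranked 511 of the 16538.

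**Figure D1:**
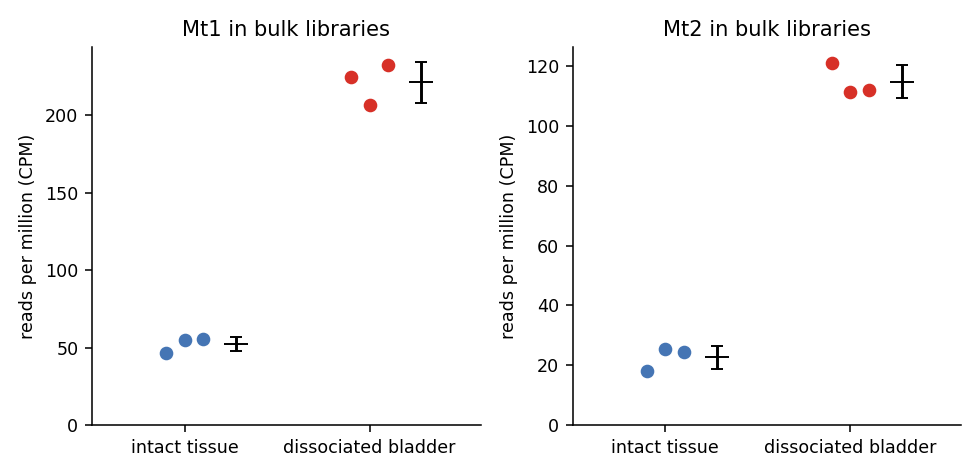
Reads per 1000000 of Mt1 (left) and Mt2 (right) in the 6 bulk libraries, with a point per library and the group mean ± SD (n = 3) as a bar beside the points. The dissociated libraries, at 207 to 233 CPM for Mt1 and 111 to 121 CPM for Mt2, lie above all intact libraries.

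The balance of the pair differed less than the levels. The ratio of Mt1 to Mt2 reads was 2.57, 2.17 and 2.26 in intact tissue and 1.86, 1.86 and 2.08 in dissociated bladder. The groups did not overlap, every dissociated library being lower. The mean log2 ratio differed by -0.27, from 1.22 ± 0.13 to 0.95 ± 0.09 (SD, n = 3 each; two-sided exact permutation p = 0.1, the smallest that 3 libraries against 3 allow). Mt1 and Mt2 are similar in sequence, and how reads that match both were counted is not given in the sources used here.

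The cell makeup of the bulk libraries moved with this comparison. All 10 smooth muscle markers were lower after dissociation, their summed level going from between 46598 and 48587 CPM to between 2583 and 3843 CPM. All 12 fibroblast markers were higher, with sums of 18221 to 21940 CPM in intact tissue and 35411 to 50911 CPM in dissociated bladder. Of 10 macrophage and monocyte markers, 9 were higher, with sums of 856 to 959 CPM against 1024 to 1399 CPM. Urothelial markers were mixed, 3 higher and 4 lower of 12, with overlapping sums of 6953 to 8048 CPM and 5322 to 7850 CPM. Dendritic and blood endothelial markers were each higher for 8 of 10, with sums of 630 to 855 against 1313 to 2030 CPM and of 489 to 545 against 836 to 1033 CPM. All 6 tested lymphatic endothelial and all 5 erythroid markers were higher, and all 6 adipocyte markers were lower, with sums of 33.7 to 185 CPM in intact and 3.63 to 8.72 CPM in dissociated libraries. Of 5 tested neutrophil markers, 3 were higher and none lower, with overlapping sums of 50.7 to 57.2 and 51.6 to 54.2 CPM, while Ly6g of the same list was at 0 in all 6 libraries. In the other 9 lists no more than 4 markers passed in either direction. Among these, sums were lower after dissociation for skeletal muscle (550 to 708 against 46.4 to 54.9 CPM) and neuron markers (265 to 281 against 131 to 165 CPM). They were also lower for pericyte (769 to 827 against 557 to 644 CPM) and mast markers (42.0 to 76.1 against 17.4 to 32.6 CPM). Single markers went both ways, with 2 higher and 2 lower of 6 for skeletal muscle and 3 and 3 of 8 for pericytes. Of 5 tested neuron markers 3 were higher and 1 lower, and Uchl1 alone held a mean of 259 CPM in intact and 113 CPM in dissociated libraries. Of 5 tested mast markers 1 was lower and none higher. Sums of the remaining lists overlapped. Fewer cells of a type and less RNA per cell cannot be told apart in bulk, and the part of these markers in the metallothionein result was not tested.

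The rest of the metal machinery did not follow the metallothioneins as a block. Mtf1, the zinc sensor, was at 29.95 ± 1.11 CPM in intact and 28.1 ± 0.24 CPM in dissociated libraries (SD, n = 3 each), a difference of 0.02 on the log2 scale (SE 0.07, adjusted p = 0.82). Slc30a1 was at 32.5, 32.5 and 28.7 CPM in intact and at 28.001, 43.2 and 43.9 CPM in dissociated libraries, a difference of 0.41 on the log2 scale (SE 0.17, adjusted p = 0.070); dissociated library 1 lies below all intact ones, and without it the difference was 0.60 and passed (adjusted p = 0.0023), as it did with RLE scaling (0.45) and with DESeq2 (0.45). Mt3 gave 2 to 30 reads per library with 0.29 on the log2 scale (SE 0.56, adjusted p = 0.68). Mt4 gave 0 reads in the intact libraries and 1 or 2 in each dissociated one and was not tested.

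Of 7 tested zinc exporters and vesicle loaders of the Slc30 family, 2 rose and 1 fell, with a median log2 fold change of 0.02 beside -0.03 over all genes; scaled to library size alone, 1 rose and 2 fell and the median was -0.09. Slc30a4 rose by 0.77 on the log2 scale (adjusted p = 0.00050), and Slc30a7 (0.25, adjusted p = 0.034) and Slc30a6 (-0.34, adjusted p = 0.015) passed with small changes. Of 12 tested Slc39 importers, which bring zinc into the cytosol, 5 rose and 4 fell, with a median of 0.15. Slc39a6 (log2 fold change 1.01), Slc39a1 (0.81) and Slc39a8 (0.61) rose most, while Slc39a2 (-0.94), Slc39a3 (-0.88) and Slc39a13 (-0.31) fell most. Among 9 copper genes, 2 rose and 3 fell, with a median of -0.13. The copper pump Atp7a rose by 1.44 and the importer Slc31a1 by 0.81 on the log2 scale, while the chaperones Cox17 (-0.97), Ccs (-0.30) and Atox1 (-0.26) fell. The called shares of these lists, 3 of 7, 9 of 12 and 5 of 9, lie near the 59.2% of all genes.

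The other pathways known to raise metallothioneins are read beside the same background, 59.2% of all genes called and 27.9% called higher. Of 10 genes of the interleukin-6 and Stat3 response, 9 rose and none fell, with a median log2 fold change of 2.56. The cytokine Il6 gave 1, 2 and 2 reads in the intact libraries and 5094, 4761 and 4017 in the dissociated ones, so its fitted change of 11.99 rests on very few intact reads. Socs3, the feedback inhibitor of this pathway, rose from 12.5 ± 3.54 to 878 ± 146 CPM (log2 fold change 6.26), and the immediate-early gene Junb from 66.9 ± 7.54 to 1689 ± 141 CPM (4.77; SD, n = 3 each). Of 9 tested glucocorticoid-responsive genes, 6 rose and none fell, with a median of 1.25, led by Errfi1 (3.39), the kinase Sgk1 (3.21) and the clock gene Per1 (2.49). Fkbp5, Tsc22d3 and Zbtb16 did not pass, at 0.04, 0.31 and -0.24 on the log2 scale (adjusted p = 0.77, 0.14 and 0.48). The Nrf2-regulated redox genes were split, 5 higher and 2 lower of 10 with a median of 0.58, a called share near that of all genes. Hmox1, which degrades heme, rose by 2.37, the cystine importer Slc7a11 by 1.57 and the thioredoxin reductase Txnrd1 by 1.42 on the log2 scale. Keap1, the inhibitor of Nrf2, fell by 0.87 and G6pdx by 0.37. The changes named as passing in these lists had adjusted p of 0.023 or less by the same test.

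In whole-bladder cells, Mt1 was high in macrophage or monocyte-like cells and, in the 1 library with enough of them, in Schwann-like and pericyte-like cells, and low in T or NK-like cells. No one order of classes held in every library: the highest value was that of fibroblast-like cells in the second 12-month library, and mesothelial-like cells held 1898 CPM in the 24-month library, where macrophage or monocyte-like cells held 1794. Macrophage or monocyte-like cells held 1794, 3066 and 3604 CPM of Mt1 in the 24-month, 22-month and 3-month libraries, the 3 with enough such cells. In the 22-month library, Schwann-like cells held 3526 CPM (35 cells) and pericyte-like cells 2670 CPM (93 cells). The larger Schwann-like groups of the detrusor libraries were lower, at 857 CPM in the detrusor-only (385 cells) and 1346 CPM in the detrusor-enriched library (194 cells), where pericyte-like cells held 4014 CPM (168 cells) and 2299 CPM (107 cells). Fibroblast-like cells held 1351 CPM in the 22-month library, 1724 in the 3-month library, 1969 and 6495 in the 12-month libraries and 1556 in the 24-month library. Library 2 of 12 months stands apart from the other 4. Mesothelial-like cells ranged from 1470 to 1903 CPM over 3 libraries. Dendritic-like cells ranged from 359 to 2844 CPM over 4 libraries, and at 22 months their 2 clusters held 3786 CPM (274 cells) and 337 CPM (133 cells).

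Urothelial-like cells held 700, 693, 570, 876 and 538 CPM of Mt1 in the 22-month, 3-month, first and second 12-month and 24-month libraries. Blood endothelial-like cells held 204 to 527 CPM and lymphatic endothelial-like cells 416 and 462 CPM in the 2 male libraries. T or NK-like cells held 141 to 196 CPM over 3 libraries. B-like cells held 102 CPM in the 3-month library (6 UMIs in 48 cells, 95% interval 37.4 to 222) and 484 CPM in the 24-month library (49 cells). Fibroblast-like, mesothelial-like and dendritic-like cells overlap in their ranges, as do blood and lymphatic endothelial-like cells. The urothelial-like range, 538 to 876 CPM, lies below every fibroblast-like value of the whole-bladder libraries.

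Mt2 ran in a different order. Mesothelial-like cells had 689 to 884 CPM, fibroblast-like cells 427, 453, 612, 3335 and 570 CPM in the library order used for Mt1 above, and macrophage or monocyte-like cells 240 to 464 CPM. Dendritic-like cells ranged from 147 to 848 CPM over 4 libraries. In the 22-month library they held 848 CPM, mesothelial-like cells 689, Schwann-like cells 675 and pericyte-like cells 299 CPM. Urothelial-like cells had 160 to 328 CPM, and T or NK-like cells 40.4 to 75.8 CPM. B-like cells had 0 UMIs of Mt2 in the 3-month library, which allows up to 62.7 CPM by the exact Poisson interval, and 257 CPM in the 24-month library. Macrophage or monocyte-like cells thus lay within or below the fibroblast-like range for Mt2. At the level of cells, thinned to 500 UMIs each, 48.3% to 56.1% of macrophage or monocyte-like cells had an Mt1 UMI across the 5 libraries of cells that held them, against 22.2% to 31.0% of urothelial-like cells and 26.3% to 78.3% of fibroblast-like cells of the whole-bladder libraries. T or NK-like cells had 0% to 9.14% in the whole-bladder libraries. Their median depths of 760 to 3561 UMIs per cell were lower than those of urothelial-like cells of the same libraries, 3128.5 to 12453 UMIs. Free RNA in the droplets was not measured, so its part in any of these shares is not known.

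**Figure D2:**
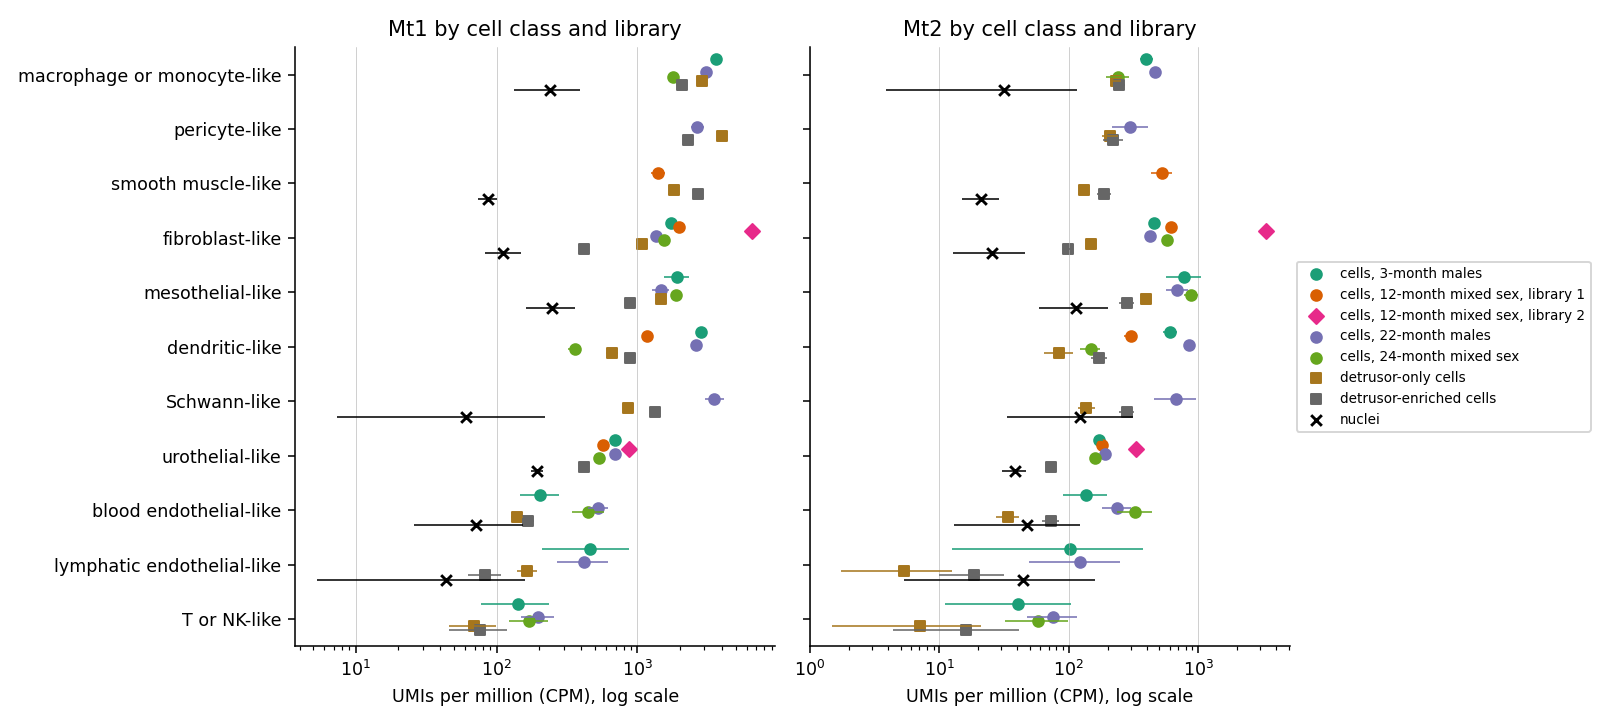
UMIs per 1000000 (log axis) of Mt1 (left) and Mt2 (right) for each cell class of at least 20 cells, with a symbol per library and lines for exact Poisson 95% intervals, which cover counting error only; classes with 0 UMIs of the gene are not drawn. Nuclei (crosses) lie below cells of the same class for Mt1, and fibroblast-like cells of the second 12-month library, at 6495 and 3335 CPM, lie right of all others of their class.

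Fitted over the class sums of the whole-bladder libraries with a library term, urothelial-like cells were below fibroblast-like cells by -1.30 on the log2 scale for Mt1 (SE 0.43, adjusted p = 0.016) and by -1.50 for Mt2 (SE 0.40, adjusted p = 0.0039), where 60.5% of 11417 genes were called. Fibroblast-like cells were higher in 5 of 5 whole-bladder libraries for both genes. In the detrusor-enriched library, outside this fit, Mt1 was alike, at 420 CPM (interval 412 to 428) in fibroblast-like and 416 CPM (404 to 428) in urothelial-like cells. Mt2 was at 98.2 and 72.9 CPM there. Without the second 12-month library the Mt1 difference was -1.05 (adjusted p = 0.067). T or NK-like cells were lower by -3.46 for Mt1 (SE 0.63, adjusted p = 0.00038) and -3.32 for Mt2 (SE 0.64, adjusted p = 0.00058), with 36.7% of genes called. With cells of at least 1000 UMIs these became -2.52 and -2.61 and still passed. Blood endothelial-like cells were lower by -2.44 for Mt1 (adjusted p = 0.0051) and -1.58 for Mt2 (adjusted p = 0.043), with 26.4% of genes called. The endothelial Mt1 call was lost without the 22-month library (-2.72, adjusted p = 0.060) or the 3-month library (-2.21, adjusted p = 0.054). The Mt2 call was also lost without either of them (-1.61 and -1.49, adjusted p = 0.18 and 0.21) or either 12-month library (-1.51 and -1.43, adjusted p = 0.084 and 0.052), and it was kept in only 2 of 12 alternatives, with DESeq2 and without the 24-month library.

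Macrophage or monocyte-like cells differed from fibroblast-like cells by 1.17 for Mt1 (SE 0.52, adjusted p = 0.089) and by -0.08 for Mt2 (SE 0.49, adjusted p = 0.92); 39.9% of genes were called. Dendritic-like cells differed by 0.40 and 0.20 (SE 0.48 and 0.45, adjusted p = 0.52 and 0.74; 51.0% called) and mesothelial-like cells by -0.32 and 0.18 (SE 0.54 and 0.50, adjusted p = 0.79 and 0.88; 14.8% called). In the same fit Slc30a1 was higher in urothelial-like than in fibroblast-like cells by 1.81 (adjusted p = 7.3e-06) and in blood endothelial-like cells by 3.72 (adjusted p = 2.7e-07). In T or NK-like cells its difference was -1.01 (SE 1.38, adjusted p = 0.61). Mtf1 passed in T or NK-like cells, where it was higher by 1.35 (adjusted p = 0.017), and in none of the other 5 classes compared. Both genes were low over the whole-bladder libraries, Mtf1 at 10.0 to 13.6 CPM and Slc30a1 at 5.03 to 10.5 CPM. Their differences in small classes thus rest on few UMIs. Of 10 Nrf2-regulated genes, 6 were higher and 2 lower in urothelial-like than in fibroblast-like cells; of 9 glucocorticoid genes, 1 was higher and 6 lower, where 60.5% of all 11417 genes were called. Scaling bears on these contrasts: with library size alone the all-gene median moved from -0.09 to -0.64 for dendritic-like, from -0.08 to -0.71 for macrophage or monocyte-like and from 0.09 to -0.29 for urothelial-like cells. Calls then went from 2787 higher and 3032 lower to 1702 and 4968, from 2183 and 2374 to 1334 and 4773, and from 3677 and 3227 to 2290 and 4408. For mesothelial-like cells they went from 682 and 1012 to 816 and 593. The macrophage Mt1 difference became 0.52 and the dendritic one -0.21, neither passing, while the urothelial-like differences became -1.71 and -1.92 and passed.

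The 2 12-month whole-bladder libraries carry the same labels, yet fibroblast-like Mt1 was 1969 CPM (415 cells, Poisson 95% interval 1913 to 2026) in the first and 6495 CPM (143 cells, 6332 to 6661) in the second. Mt2 was 612 and 3335 CPM. Both fibroblast-like clusters of the second library were high, at 6814 CPM (97 cells) and 5824 CPM (46 cells) for Mt1, so the value does not rest on a single cluster. Other genes moved there too. Errfi1 was at 1170 CPM in these fibroblast-like cells against 112 to 203 CPM in the other 4 libraries, and Il6 at 366 CPM against 14.2 to 203 CPM. Tsc22d3, a glucocorticoid target, was at 101 CPM, within the 68.2 to 688 CPM of the others, and Hmox1 at 37.7 CPM, within 30.8 to 60.6 CPM. Over the 7966 genes of at least 10 CPM in fibroblast-like cells, 17.5% were highest in this library. It was also the library with the fewest barcodes, 1021. Whether these features have a part in the metallothionein level was not tested.

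Fibroblast-like cells did not carry metallothioneins evenly. In the 22-month library the 9 fibroblast-like clusters of at least 20 cells ran from 271 CPM (95% interval 248 to 297, 603 cells) to 8211 CPM (7893 to 8538, 105 cells) of Mt1, a 30.3-fold range, although Mt1 and Mt2 were kept out of the clustering. The lowest cluster was led by the chemokine gene Cxcl14, Car3 and the collagen gene Col1a1. The highest was led by Tnfaip6, Ccl11, Mfap5, Ptx3, Pi16 and Has1, genes of hyaluronan-rich matrix and of inflammatory response among them, and held 5004 CPM of Mt2. The next, at 5822 CPM of Mt1 and 1924 CPM of Mt2 (906 cells), was led by Sult1e1, Penk and Inmt. In the 3-month library the range was 11.3-fold, from 556 CPM in a cluster led by Cxcl14, Col1a1 and Car3 (751 cells) to 6300 CPM in one led by Lum, Clec3b, Sult1e1 and Penk (370 cells).

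Some leading genes recurred at the ends of the range. In 6 of the 7 cell libraries the fibroblast-like cluster with the lowest Mt1 had Cxcl14 and Car3 among its 10 leading genes, and in 7 of 7 the highest had Clec3b. The detrusor-only library was the exception, where the lowest cluster was led by Pi16 and Clec3b. Leading genes of a named cluster were ranked against clusters with a low score for its marker list, not against other clusters of its class. How many of all fibroblast-like clusters had these genes among their leading ones was not counted. Each 12-month library had only 2 fibroblast-like clusters. Lowest against highest Mt1 was 1376 and 2524 CPM in the first 12-month library, 5824 and 6814 in the second, 818 and 2332 in the 24-month library, 449 and 2303 in the detrusor-only library and 50.7 and 1607 in the detrusor-enriched library, where the highest cluster was led by Lum, Clec3b and Sult1e1. The clusters were chosen for their values, so no test of these ranges was made. Urothelial-like clusters spread by 1.13-fold to 1.75-fold in the whole-bladder libraries. That was less than the fibroblast-like spread in the 22-month, 3-month and 24-month libraries, close to it in the first 12-month library (1.65-fold against 1.83-fold) and more in the second (1.75-fold against 1.17-fold). A spread can grow with the number of clusters, whose part was not tested. Fibroblast-like and urothelial-like clusters numbered 9 and 2 at 22 months, 5 and 3 at 3 months and 3 and 6 at 24 months. In the 12-month libraries they numbered 2 and 8, and 2 and 6.

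Macrophage or monocyte-like and smooth muscle-like cells were split in a similar way. Clusters led by Chil3, a gene known from monocytes, held 520 CPM of Mt1 in the 22-month library (38 cells) and 271 CPM in the 3-month library (57 cells). The highest clusters of the class held 5389 CPM (65 cells, led by Retnla, Lyz1 and Cxcl2) and 4075 CPM (301 cells, led by the complement genes C1qa, C1qc and C1qb). Of the 2 smooth muscle-like clusters of each detrusor library, the one led by Pln, which encodes the calcium pump regulator phospholamban, had 3387 CPM of Mt1 in the detrusor-only and 3206 CPM in the detrusor-enriched library. The one led by Cnn1, with the contractile genes Des and Actg2 among its leading genes, had 934 and 673 CPM.

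**Figure D3:**
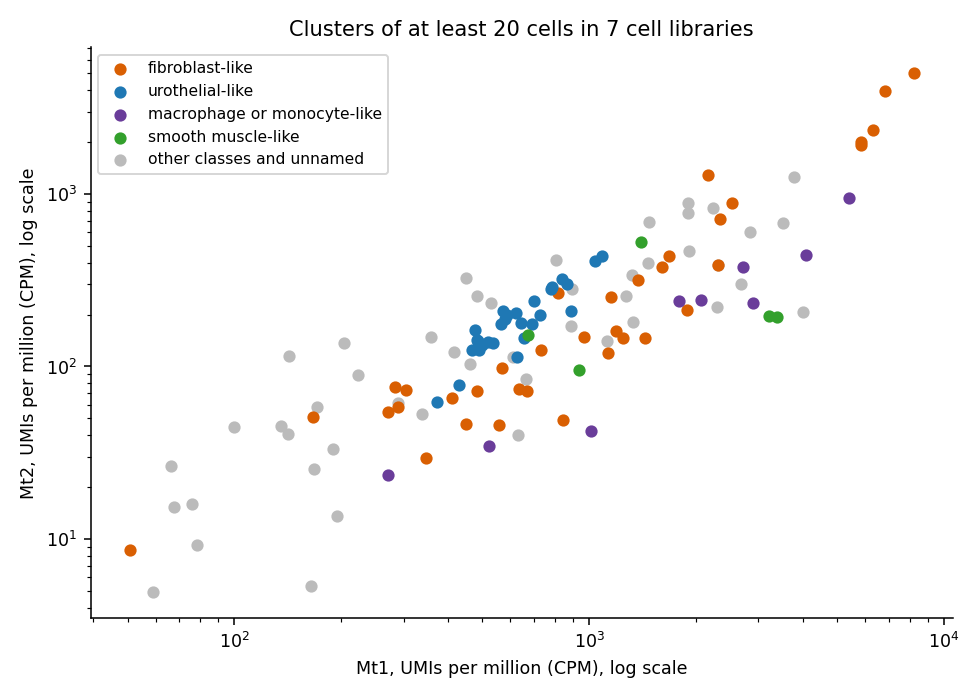
Mt1 against Mt2 (UMIs per 1000000, both axes log) for clusters of at least 20 cells with at least 1 UMI of each gene in the 7 cell libraries, with a point per cluster coloured by class. Fibroblast-like clusters stretch from 50.7 to 8211 CPM of Mt1, urothelial-like clusters stay between 372 and 1088 CPM.

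Within fibroblast-like cells the pair was detected together. After thinning to 500 UMIs, 26.4% of the 22-month cells with an Mt1 UMI also had an Mt2 UMI, against 4.73% of those without. In the 3-month library these shares were 27.6% and 4.78%, and in the 24-month library 33.7% and 8.33%. They were 23.8% and 12.3% in the first 12-month library and 58.9% and 25.8% in the second. Urothelial-like cells showed little of this in the male libraries, with 8.44% against 8.11% at 22 months and 8.85% against 7.07% at 3 months. In the deeper mixed-sex libraries the urothelial-like shares were 11.7% against 6.10%, 26.6% against 10.2% and 10.0% against 6.55%, so the pair was also detected together there. Other classes showed it too. At 22 months dendritic-like cells had 41.4% against 5.15%, and macrophage or monocyte-like cells 18.6% against 4.59%. Pericyte-like and T or NK-like cells of that library did not, with 10.3% against 11.1% and 0% against 3.91%. The 90th percentile of Mt1 per cell was 36.7 UMIs per 10000 in 22-month fibroblast-like cells with a median of 2.78, and 15.04 with a median of 5.75 in urothelial-like cells of that library.

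Cell classes differed in the balance of the pair. UMIs are counted per molecule with the same chemistry for both genes, and the ratio of Mt1 to Mt2 is compared here between classes, though how UMIs that match both genes were assigned is not given in the sources used here. Macrophage or monocyte-like cells held 6.61, 9.08 and 7.47 Mt1 UMIs per Mt2 UMI in the 22-month, 3-month and 24-month libraries, and 12.4 and 8.47 in the detrusor-only and detrusor-enriched libraries. Smooth muscle-like cells held 13.9 and 14.4 in those 2 libraries, and pericyte-like cells 19.4 and 10.5. The smooth muscle-like clusters differed, those led by Pln holding 17.4 and 16.3 and those led by Cnn1 9.83 and 4.44. In the first 12-month library, smooth muscle-like cells (35 cells) held 2.66. Fibroblast-like cells held 3.16, 3.81, 3.22, 1.95 and 2.73 in the whole-bladder libraries, and mesothelial-like cells 2.13 to 2.44. The macrophage and fibroblast ranges did not overlap within the whole-bladder libraries. Urothelial-like cells, at 2.67 to 4.08, lay within the range of fibroblast-like cells except at its upper end, and blood endothelial-like cells were at 1.39 to 2.26.

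**Figure D4:**
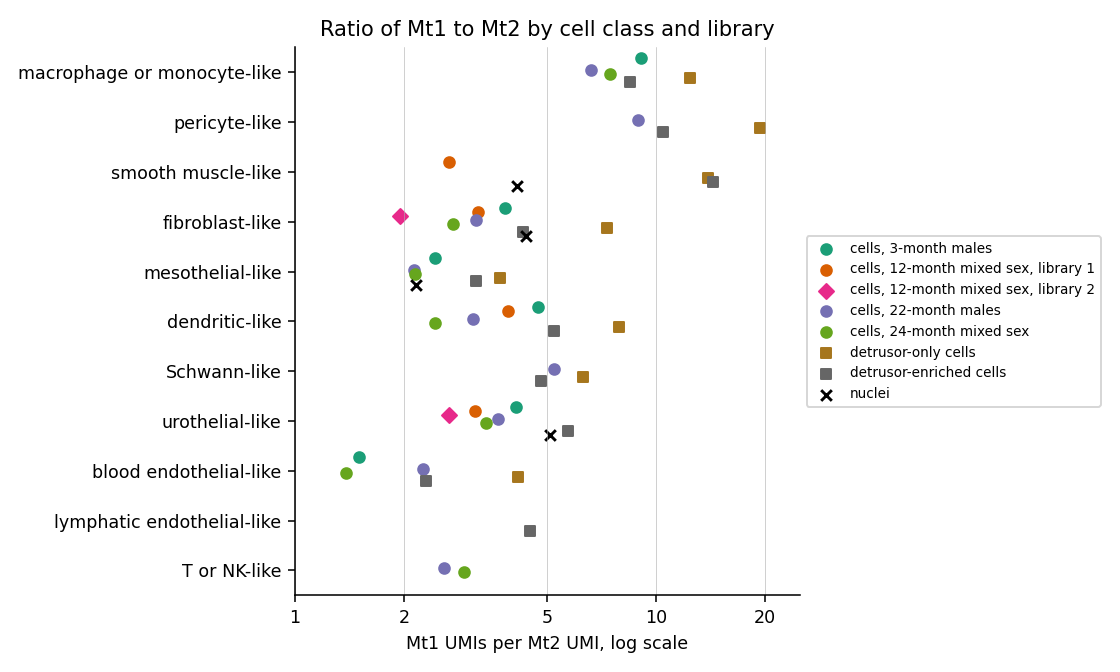
Mt1 UMIs per Mt2 UMI (log axis) by cell class for classes of at least 20 cells with at least 10 Mt2 UMIs, with a symbol per library. Macrophage, pericyte and smooth muscle classes reach 6.61 to 19.4, apart from smooth muscle-like cells of the first 12-month library (2.66) and of nuclei (4.11), while most other values lie between 1.39 and 7.88.

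The ratio also moved with the library. The detrusor-only library had the highest ratio over all its cells, 8.26, and the highest in fibroblast-like (7.31), mesothelial-like (3.70) and dendritic-like cells (7.88) among the cell libraries. The second 12-month library had the lowest over all cells, 2.41. These ratios also moved with the gene list. They were 2.41 to 3.15 in the mixed-sex whole-bladder tables and 3.48 and 4.61 in the male ones. The detrusor, nuclei and section tables, on the list of 31053 genes, ran from 4.38 to 8.26. Tissue, assay and gene list move together here, and the part of each was not tested. Across fibroblast-like clusters the highest Mt1 level of the 22-month library came with a low ratio, 1.64, and the lowest with 4.96, so Mt2 varied more than Mt1 between these clusters.

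Along the urothelium, both genes were higher in cells with most uroplakin, the mark of the outer umbrella cells, in 4 of 5 libraries under each setting tried, and the gradient was small. Urothelial-like cells were divided in each library into 3 equal parts by the share of uroplakin UMIs in their UMIs of uroplakins and of the basal keratins Krt5 and Krt15. In the second 12-month library Mt1 went from 653 to 797 to 1074 CPM and Mt2 from 221 to 274 to 435 CPM. In the first 12-month library Mt1 was 511, 518 and 655 CPM, and in the 24-month library 464, 500 and 629 CPM. The 22-month males had 648, 710 and 732 CPM, and the 3-month males 712, 651 and 720 CPM, where the intervals of the outer parts overlap. Mt2 of the 3-month males, at 164, 171 and 174 CPM, kept no such order in other settings: with cells of at least 1000 UMIs it was 164, 175 and 170 CPM, and with 2 equal parts it was 170.02 and 169.996 CPM. The median log2 ratio of the highest to the lowest part over the 5 libraries was 0.36 (SD 0.27) for Mt1 and 0.64 (SD 0.34) for Mt2, positive in each library with 3 parts. Median depth rose along the parts too, from 11922 to 15426 UMIs in the first 12-month library, and its part was not tested.

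Nuclei held far less metallothionein RNA than whole cells. Over the whole nuclei library Mt1 was at 144 CPM and Mt2 at 32.9 CPM, against 710 to 1350 CPM and 226 to 519 CPM over the whole-bladder cell libraries. Urothelial-like nuclei held 194 CPM of Mt1 (448 UMIs in 1245 nuclei, 95% interval 176 to 212), below the 538 to 876 CPM of the cells. The fits of nuclei against cells compare this 1 nuclei library, assumed to vary like the cell libraries, with cells of other ages, depths and gene lists. Their SEs and p-values thus hold no spread between nuclei libraries. The fitted log2 difference was -3.00 for Mt1 (SE 0.53, adjusted p = 0.0062) and -3.68 for Mt2 (SE 0.77, adjusted p = 0.011), with 35.2% of 13326 genes called and 19.2% called lower. Fibroblast-like nuclei held 112 CPM of Mt1 (48 UMIs in 406 nuclei, 82.6 to 149) and 25.7 CPM of Mt2 (11 UMIs). Their differences were -5.52 (SE 1.41, adjusted p = 0.028) and -6.39 (SE 2.09, adjusted p = 0.067), with 24.7% of 12430 genes called and 16.1% called lower. In macrophage or monocyte-like nuclei (15 Mt1 and 2 Mt2 UMIs in 65 nuclei) they were -4.69 and -4.64 (SE 0.84 and 0.82, adjusted p = 0.033 for each; 9.62% of 7350 called, 6.3% as lower).

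The size of these differences depends on the scaling. Scaled to library size alone, a setting added after seeing the data, the differences were -1.80 (Mt1) and -2.44 (Mt2) in urothelial-like, -4.54 and -5.39 in fibroblast-like and -3.48 and -3.44 in macrophage or monocyte-like nuclei, passing or missing the test as before. That scaling moved the all-gene medians from -0.04 to 1.12, from -0.33 to 0.56 and from -0.40 to 0.80. Calls went from 2132 higher and 2558 lower to 5033 and 585 in urothelial-like, from 1065 and 2001 to 2723 and 523 in fibroblast-like and from 244 and 463 to 994 and 138 in macrophage or monocyte-like nuclei. The fibroblast-like Mt1 difference was -4.76 without the second 12-month library (adjusted p = 0.012), where Mt2 also passed (-5.21, adjusted p = 0.012), and it missed the threshold without the first (-5.59, adjusted p = 0.0503) and against only the 12-month libraries (-6.07, adjusted p = 0.24). The macrophage calls were lost without the 22-month library (-4.37 for Mt1 and -4.18 for Mt2, adjusted p = 0.17 and 0.072) and without the 3-month library (-4.42 and -4.52, adjusted p = 0.086 for each).

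The zinc sensor and exporter passed in neither class. Mtf1 differed by -0.22 in urothelial-like and 0.08 in fibroblast-like nuclei (adjusted p = 0.55 and 0.91), and Slc30a1 by 0.58 and 1.70 (adjusted p = 0.31 and 0.12). With library size alone Mtf1 was at 0.95 and 0.98 and did not pass, while Slc30a1 was higher by 1.79 and 2.58 and passed (adjusted p = 0.0083 and 0.029). Of the zinc transporter lists, 0 of 6 Slc30 and 0 of 12 Slc39 genes passed in urothelial-like nuclei, while 5 of 9 copper genes were lower. Their median log2 differences were 0.38, -0.34 and -1.86, beside -0.04 over all genes, of which 19.2% were called lower. With library size alone 3 Slc30 and 3 Slc39 genes were higher, and 2 copper genes were higher and 2 lower. In fibroblast-like nuclei 4 of 8 copper genes and 1 of 10 Slc39 genes were lower and none of these was higher, where 16.1% of all genes were called lower.

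Within the 1 nuclei library, Mt1 in urothelial-like nuclei (194 CPM, interval 176 to 212) was above that in fibroblast-like nuclei (112 CPM, 82.6 to 149) and in smooth muscle-like nuclei (86.6 CPM, 73.6 to 101, 1386 nuclei). The class difference itself was compared between nuclei and cells with an interaction term, added after these values were seen and resting on the same 1 nuclei library. It was 2.28 on the log2 scale for Mt1 (SE 0.59, adjusted p = 0.23) and 2.25 for Mt2 (SE 0.87, adjusted p = 0.40), so it did not pass over all genes, of which 0.635% were called. Without the second 12-month library it was 2.04 for Mt1 and 1.96 for Mt2. The values that prompted this comparison are part of the fit, so it is no separate test of them.

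No difference with age was called. Older libraries (22 and 24 months) against younger ones (3 and 12 months), with the sex mix as a term, gave log2 differences of -0.20 (SE 0.24) for Mt1 and -0.27 (SE 0.36) for Mt2 in urothelial-like cells, and -0.99 (SE 0.74) and -1.06 (SE 1.25) in fibroblast-like cells, each with adjusted p of 1.0. By edgeR 0% of 12316 genes passed in urothelial-like cells, where 327 had an unadjusted p under 0.05 and DESeq2 called 3, and 0.00874% of 11448 in fibroblast-like cells. Over all alternatives the fibroblast-like differences ran from -1.52 to -0.28 for Mt1 and from -1.88 to -0.01 for Mt2. The urothelial-like ones ran from -0.45 to 0.12 and from -0.70 to 0.28, so their direction was not kept.

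Sections, in which the tissue was not dissociated into cells, held 716 and 489 CPM of Mt1 at 22 months and 715 and 811 CPM at 14 months. Mt2 was at 123 and 98.8 CPM, and at 144 and 136 CPM. These UMI levels cannot be set against the read levels of bulk tissue. Section 2 of 22 months was the lowest for both genes. The log2 difference of 22 against 14 months was -0.28 for Mt1 (SE 0.17, adjusted p = 0.45) and -0.28 for Mt2 (SE 0.10, adjusted p = 0.27). Over the alternatives these ran from -0.54 to -0.07 and from -0.40 to -0.17. By edgeR 0% of 14995 genes were called, 2487 had an unadjusted p under 0.05, and DESeq2 called 420. An Mt1 UMI was found in 91.2% to 99.5% of spots over tissue and an Mt2 UMI in 63.3% to 82.8%.

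Within sections, Mt1 was higher where urothelial genes were than where muscle genes were. Spots in the top 1 in 4 of a section for urothelial, fibroblast or smooth muscle markers are called urothelium-rich, stroma-rich and muscle-rich, leaving out spots in more than 1 of these sets; a spot can hold several cell types. Urothelium-rich spots held 806, 684, 760 and 980 CPM of Mt1 in sections 1 and 2 of 22 months and 1 and 2 of 14 months. Stroma-rich spots held 624, 343, 795 and 607 CPM, and muscle-rich spots 599, 256, 419 and 499 CPM. For Mt1, urothelium-rich spots were above muscle-rich spots in 4 of 4 sections, and above stroma-rich spots in each section but the first of 14 months. Mt2 was at 134, 67.4, 193 and 125 CPM in stroma-rich and at 115, 137, 130 and 140 CPM in urothelium-rich spots, in the same order. Urothelium-rich against stroma-rich spots were not tested.

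With a term for the section, urothelium-rich spots exceeded muscle-rich spots by 0.83 for Mt1 (SE 0.18, adjusted p = 0.0011), where 72.9% of 12971 genes were called. For Mt2 the difference was 0.46 (SE 0.27, adjusted p = 0.15), higher in 3 of 4 sections. Section 1 of 22 months was the exception, with 115 CPM in urothelium-rich and 126 CPM in muscle-rich spots. Without it the Mt2 difference was 0.73 (adjusted p = 0.036), and with the top 1 in 10 spots in place of 1 in 4 it was 1.05 (adjusted p = 0.011). Stroma-rich against muscle-rich spots gave 0.25 for Mt1 (SE 0.18, adjusted p = 0.29) and 0.29 for Mt2 (SE 0.27, adjusted p = 0.45), with 37.3% of genes called. With library size alone the calls of this contrast went from 2561 higher and 2273 lower to 4069 and 1386, and Mt1 was at 0.42 (adjusted p = 0.054). Depth moved with the zones: the median spot held 31110.5 to 52918 UMIs in urothelium-rich and 10935 to 15064.5 in muscle-rich spots, and its part was not tested.

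**Figure D5:**
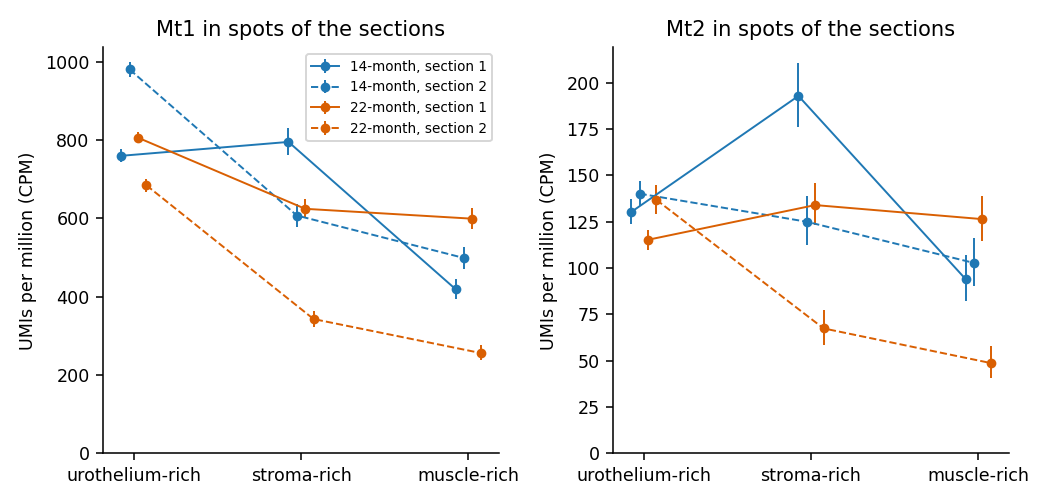
Mt1 (left) and Mt2 (right) in UMIs per 1000000, summed over urothelium-rich, stroma-rich and muscle-rich spots of the 4 sections, with exact Poisson 95% intervals and a line per section. Mt1 is higher in urothelium-rich spots (684 to 980 CPM) than in muscle-rich spots (256 to 599 CPM) of each section, and Mt2 in all but section 1 of 22 months.

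The spatial pattern of the wider lists went with the urothelium in part. Between urothelium-rich and muscle-rich spots, 8 of 10 Nrf2-regulated genes were higher and 2 lower, with a median log2 difference of 1.78 beside 0.07 over all genes. Of 6 Slc30 genes, 5 were higher and 1 lower, Slc30a1 being higher by 0.45 (SE 0.17, adjusted p = 0.028). Of 10 glucocorticoid genes, 9 were lower and 1 higher. These sit beside a background of 72.9% of 12971 genes called, 4983 higher and 4470 lower.

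Likeness to the sum of Mt1 and Mt2 was read over the 33 class sums of the whole-bladder libraries, on log2 levels centred within each library. Among 8687 genes of at least 10 CPM, the most alike were Cox6b2 (Pearson r = 0.79), C4b (0.77), Asah1 (0.74), Antxr1 (0.73), Ifi204 (0.73), Fgfr1 (0.72), Fam20c (0.71) and Ptgs2 (0.70). On the same centred log2 levels Mt1 and Mt2 themselves correlated at 0.82. The sums share libraries and depth, and the second 12-month fibroblast-like cells are an extreme point in both genes, so these are descriptions without a test.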

How the data were processed

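The authors deposited counts: UMI counts per gene and barcode or spot for cells, nuclei and sections, and read counts per gene for bulk. Per the submitters' processing notes the tools were bcl2fastq, Cell Ranger, Space Ranger, Subread and featureCounts, and the build was mm10. Parameters and versions are not given in the sources used here. Mt1, Mt2 and the gene lists were chosen with earlier results of these data known.

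Barcodes under 500 UMIs, or with over 20% of their UMIs from mitochondrial genes, were left out; the second limit could remove no male cell since those 2 tables hold 0 mitochondrial counts. The top-scoring 0.8% per 1000 barcodes, by simulated doublets, were removed. Each library was clustered alone (scanpy 1.11.5, 2000 variable genes without the members and lists, 30 components, 15 neighbours, Leiden resolution 1). Clusters were named from 19 marker lists, by a reading of the marker rule settled after the clusters had been seen, so differences between classes may depend on it. Pairs of cell or nuclei libraries shared at most 64 barcodes.

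Counts, summed over cells of a class (at least 20 cells, and 50 for nuclei and age) or spots, were tested with edgeR 4.0.16 (robust quasi-likelihood, TMM, filterByExpr, two-sided, Benjamini-Hochberg threshold 0.05 over all genes). SE is the absolute log2 fold change over the root of F. The script was tested on simulated data. Alternatives were RLE, no filter, DESeq2 1.42.0, library size alone (outside bulk added after seeing the data, as were the interaction test and the settings of the class ratios), left-out libraries and other cell settings. Shares carry exact Clopper-Pearson and levels exact Poisson 95% intervals, for counting error only. Genes named are Mt1, Mt2, Mtf1, Mt3, Mt4, Slc30a1, up to 3 called rises and 3 falls per list in bulk, and the 8 of most like pattern; cluster-leading genes and other list genes named in single libraries or classes were chosen after their values were seen. Promoters are from RefSeq.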

Additional observations from a re-analysis of the deposited data

Results flagged for a closer look

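Mt1, Mt2 and, outside the spot zones, their ratio were checked for a library that stands apart in 18 sets of 4 or 5 values, 1 per library, namely 3 cell classes of the whole-bladder libraries, the sections and their 3 zones of spots, with all ages in 1 group. The limit used is meant to pick out about 1 in 20 such checks by chance, a rate not measured here, and the checks share libraries and are not independent. A library stood apart in 3 of the 18, each time library 2 of 12-month mixed sex, which entered 6 of them. Its fibroblast-like cells held 6495 CPM of Mt1 and 3335 CPM of Mt2, and its urothelial-like cells held 328.5 CPM of Mt2. The other 4 libraries held 1351 to 1969 CPM and 427 to 612 CPM in fibroblast-like cells, and 160 to 192 CPM of Mt2 in urothelial-like cells.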

How the results depend on the processing

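Differences are log2. In bulk, both genes kept direction and call under all 11 alternatives (2.07 to 2.27 for Mt1, 2.31 to 2.52 for Mt2). Deviations from the group means correlated at 0.28, 0.38 and -0.05 between same-numbered libraries and at -0.50 to 0.30 between the others. These few values do not settle whether replicate numbers pair the samples. With a replicate block Mt1 was 2.18, Mt2 2.45 and the ratio -0.27 (exact sign-flip p = 0.25). Leaving out 1 library gave ranges of -5.68 to -4.76 and -6.62 to -5.21 for Mt1 and Mt2 in fibroblast-like nuclei, -4.81 to -4.37 and -4.75 to -4.18 in macrophage or monocyte-like nuclei, -2.72 to -2.21 and -1.91 to -1.43 in blood endothelial-like cells, -1.69 to -1.05 for Mt1 in urothelial-like cells, 0.14 to 0.73 for Mt2 in urothelium-rich spots, and 2.04 to 2.38 and 1.96 to 2.37 for the interaction. With only the 12-month cells, fibroblast-like nuclei were at -6.07 for Mt1 and lost the call. The endothelial Mt2 call was lost with RLE (-1.39), no filter (-1.65), library size alone (-1.40), 1000 UMIs (-1.23), doublets kept (-1.03) and resolution 2 (-1.13). For Mt2 in urothelium-rich spots the top 1 in 10 spots gave 1.05 and a call. Called copper genes were 3 with RLE and with DESeq2, and 3 to 5 without 1 library; called Slc30 genes were 1 to 3 without 1 library. Median shares of cells with a UMI depend on depth: without thinning they were 76.4% (Mt1) and 51.6% (Mt2) in fibroblast-like and 95.7% and 67.8% in urothelial-like cells, and thinned to 1000 UMIs the urothelial-like shares were 44.7% and 16.3%. The cause of the other changes was not tested. Of 771 values under alternatives, 697 were counted as unchanged, 54 lost a call, 8 gained one and 12 counts or medians moved. None reversed a call. Unchanged means that a fit kept its call or its lack of one, though its size, or the direction of an uncalled difference, could differ. For the bulk ratio it means a kept direction, and for counts and medians a shift within a set limit.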
